A study of Mus musculus with 6 samples.

Results

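The BTB and SCAN zinc finger genes described here were the rows of the authors' deposited table whose gene symbol starts with Zbtb, Zscan or Zkscan. There were 52 such genes among the 10896 genes of the table, namely 33 Zbtb, 12 Zscan and 7 Zkscan symbols. They were measured by RNA sequencing in mouse oocytes at the germinal vesicle stage, which have finished growth and have not yet resumed meiosis. In the in vitro group the oocytes had grown inside follicles that collagenase freed from ovaries of (C57BL x CBA) F1 females 10 to 12 days old, ovaries of several females being pooled. Those follicles were kept on membrane inserts in a medium with follicle stimulating hormone, fetal bovine serum, transferrin, insulin and selenium. In the in vivo group the oocytes had grown in the ovary and were freed with a needle from ovaries of F1 females of the same cross, 7 to 11 weeks old, in a medium with dbcAMP, a cyclic AMP analogue. Each group had 3 samples of 50 oocytes. Culture and donor age changed together in this design, so they cannot be told apart in any difference given here.

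BTB and SCAN are protein domains at the amino end of DNA-binding factors whose carboxy end carries C2H2 zinc fingers, small folds that each grip a zinc ion and read DNA bases. The BTB domain pairs 2 molecules and recruits co-repressors such as the Ncor and Bcor complexes or the ubiquitin ligase scaffold Cul3. The SCAN domain also pairs proteins, and many Zkscan proteins carry a KRAB domain as well. In many other proteins a KRAB domain recruits the co-repressor Trim28, and whether those of Zkscan proteins do was not tested here. In the oocyte these proteins and their transcripts are made during growth and handed to the embryo, since transcription stops at the end of oocyte growth.

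The symbols were set against the coding sequence of each gene in GENCODE release M21. Of the 52 genes, 51 had a coding transcript there, and 49 of these held at least 1 C2H2 finger signature (C, 2 to 4 residues, C, 12 residues, H, 3 to 5 residues, H), with a median of 4 and a maximum of 15 in Zscan10. The 2 genes without a signature were Zbtb8os, which encodes the archease factor of transfer RNA ligation, and Zbtbd6, now named Kbtbd6, whose human counterpart is a BTB and kelch adaptor of Cul3. Both stayed among the 52 because their symbols start with Zbtb, but neither is a zinc finger gene.

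The values were the authors' group means of normalised reads, and a gene was called when the authors' deposited table gave it a PPEE below 0.05. PPEE was taken to be the posterior probability of equal expression in the 2 groups, and it is not a p-value. Whole reads of each library could be recovered from the 10 significant digits of those means for 5804 genes, 29 of the 52 among them. The 3 libraries of a group are named A, B and C by the size of 1 read, because nothing ties them to the sample numbers. The recovered reads of a library summed to between 288508 and 431515, and the full depth of the libraries is unknown. Separate cultures or animals behind the samples of a group were not stated, so a spread between libraries may be partly technical.

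Among the 52 genes, 11 were called higher and 4 lower in oocytes grown in vitro, and 37 were not called. The share called higher was 21.2%, against 6.75% of all genes of the table, and the share called lower was 7.69%, against 8.31% of all genes. The higher calls lay mostly among the Zbtb genes, with 10 of 33, against 1 of 12 Zscan and 0 of 7 Zkscan genes. Without Zbtb8os and Zbtbd6, which are not zinc finger genes, 9 of 31 Zbtb genes were called higher. The lower calls were 1 of the 33 Zbtb, 2 of the 12 Zscan and 1 of the 7 Zkscan genes. By the same rule 15 of 240 numbered Zfp zinc finger genes were called higher and 14 lower. The median log2 ratio of in vitro over in vivo means was 0.14 over the 52 genes and 0.02 over all genes. It was 0.30 for the Zbtb, -0.08 for the Zscan and -0.06 for the Zkscan genes, and whether the families differ was not tested. Of the 52 genes, 9 had an in vitro mean at least 2-fold above the in vivo mean, and 0 had one at least 2-fold below it. Among all 10896 genes of the table, 714 were at least 2-fold above and 493 at least 2-fold below.

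**Figure D1:**
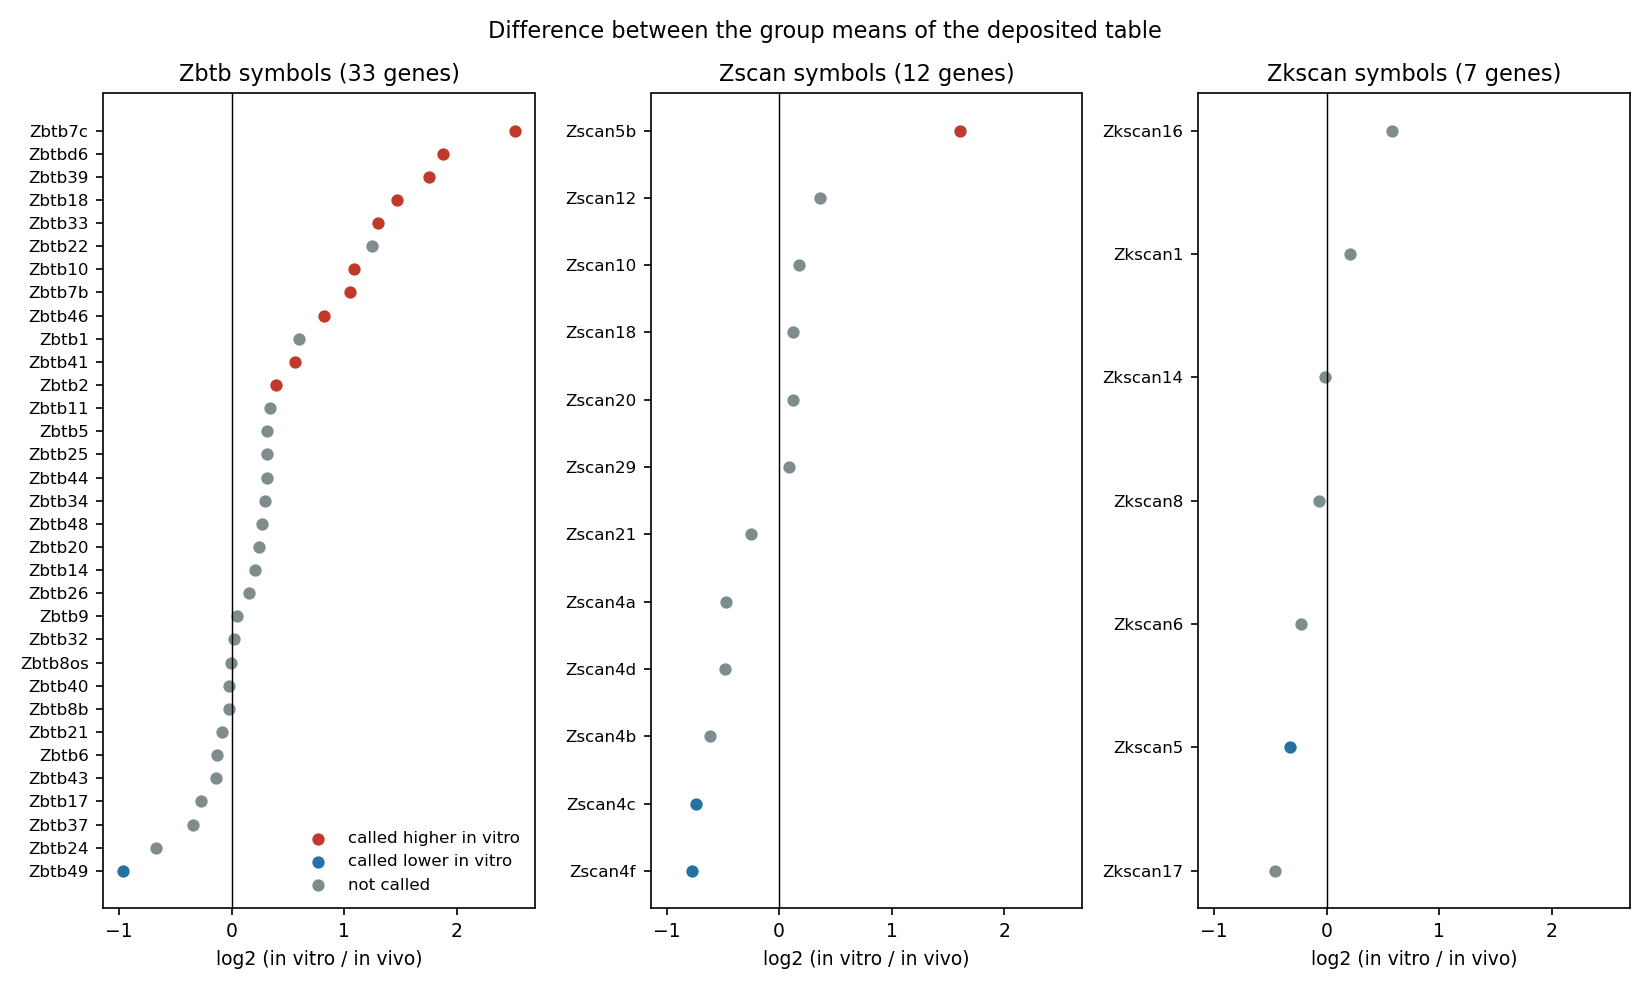
Log2 ratio of the in vitro over the in vivo group mean (horizontal axis) for the Zbtb, Zscan and Zkscan genes, 1 point a gene, ordered within each family and coloured by call. The red points, called higher in vitro, number 10 in the Zbtb panel, and the 5 Zscan4 genes sit at the bottom of the Zscan panel.

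Levels between genes were compared per kilobase of the gene length the authors gave. The highest in vivo level belonged to Zkscan14, with 574 normalised reads per kilobase in vitro and 581 in vivo in the authors' deposited table (PPEE 0.986). Next came Zkscan6, with 341 per kilobase in vitro and 398 in vivo, and Zscan21, with 322 in vitro and 383 in vivo, in the authors' deposited table. Zbtb48, whose protein binds telomere repeats, had 275 per kilobase in vitro and 228 in vivo (PPEE 0.0764), and Zbtb8b had 202 in vitro and 206 in vivo, in the authors' deposited table. None of these 5 genes was called. The sixth gene in that order was Zkscan5, with 145 per kilobase in vitro and 182 in vivo in the authors' deposited table, and it was called lower. Of the 6 genes, 4 carry a SCAN domain by symbol.

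The lowest in vivo levels belonged to Zbtb7c, with 3.74 normalised reads per kilobase in vitro and 0.545 in vivo, and to Zbtb39, with 3.42 in vitro and 0.945 in vivo, in the authors' deposited table. Zbtb22 followed with 6.51 per kilobase in vitro and 2.62 in vivo, and Zbtb5 with 3.30 in vitro and 2.63 in vivo, in the authors' deposited table. The higher calls were counted by level as well. When the 52 genes were split at their own median level of 107 normalised reads, 7 of the 26 genes below it were called higher and 0 lower, and of all table genes below that level 4.75% were called higher and 4.31% lower. Above it, 4 of 26 were called higher and 4 lower, against 8.40% higher and 11.6% lower among all table genes. An in vitro mean at least 2-fold higher was found in 7 of the 26 genes below that level, against 10.5% of all table genes there. Above that level it was found in 2 of 26, against 3.28% of all table genes.

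**Figure D2:**
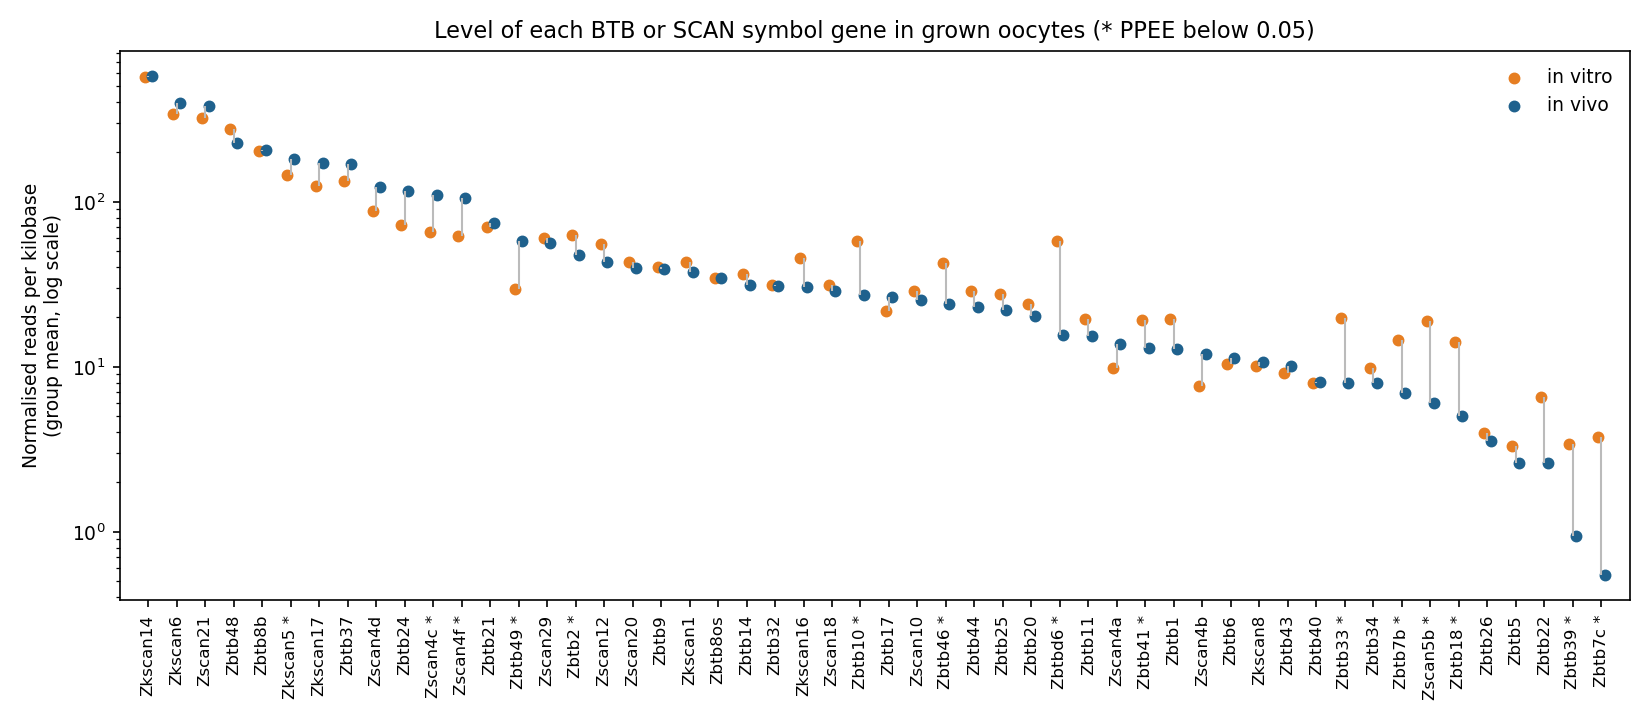
Group mean of normalised reads per kilobase (vertical axis, log scale) for the 52 genes, in vitro and in vivo side by side and ordered by the in vivo level. An asterisk marks PPEE below 0.05. Wide gaps stand on the right, where Zbtb7c had 3.74 in vitro and 0.545 in vivo.

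Zbtb33 encodes Kaiso, a repressor that binds methylated CpG sites and the catenin Ctnnd1. The in vitro libraries A, B and C held 107, 87 and 90 recovered reads of it, against 35, 37 and 53 in the in vivo libraries. After scaling for library size they averaged 100.1 ± 10.8 in vitro, against 40.3 ± 17.1 in vivo, in normalised reads (SD, n = 3 each). Every in vitro library lay above every in vivo library. Limma voom gave a log2 difference of 1.41 ± 0.29 (SE) with a Benjamini-Hochberg adjusted p of 0.0160, and PPEE in the authors' deposited table was 1.16e-09. Of its exon bases, 9.25% overlap those of Tmem255a in GENCODE, and reads there cannot be assigned without strand. Zbtb18 encodes a repressor known from the developing cerebral cortex, and had 41, 66 and 46 reads in the in vitro libraries, against 24, 23 and 16 in the in vivo libraries. It averaged 54.4 ± 15.5 in vitro, against 19.3 ± 1.15 in vivo, in normalised reads (SD, n = 3 each), again without overlap. Its limma voom log2 difference was 1.41 ± 0.35 (SE, adjusted p 0.0322), and the authors' deposited table gave a PPEE of 0.000101. With 1 library left out, the limma voom adjusted p of Zbtb33 was 0.0791 without in vitro C, 0.0894 without in vivo A and 0.0940 without in vivo B, and lay below 0.05 without each of the others. That of Zbtb18 was 0.00216 without in vitro A and at least 0.0690 without each of the others.

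The promoters of these 2 genes are shown as examples, chosen after both were called higher, and both are rich in CpG. Other genes differed in the 300-base promoters described below. Zbtb46 and Zbtb7b, also called higher, held 1 and 8 CpG there. Zbtb25 and Zbtb34, not called, held 44 and 42. Methylation was not measured, and whether Kaiso acts on these promoters was not tested. The 200 bases before the RefSeq start site on build GRCm38.p6 held 24 CpG in Zbtb33 (chrX:38189593-38189792, plus strand) and 40 in Zbtb18 (chr1:177442151-177442350, plus strand). Capitals mark CpG.
Zbtb33: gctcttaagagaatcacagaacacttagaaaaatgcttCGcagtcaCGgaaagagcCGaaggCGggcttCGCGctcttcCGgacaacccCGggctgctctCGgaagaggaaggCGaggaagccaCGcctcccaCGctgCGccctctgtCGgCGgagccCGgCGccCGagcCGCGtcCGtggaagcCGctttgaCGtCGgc
Zbtb18: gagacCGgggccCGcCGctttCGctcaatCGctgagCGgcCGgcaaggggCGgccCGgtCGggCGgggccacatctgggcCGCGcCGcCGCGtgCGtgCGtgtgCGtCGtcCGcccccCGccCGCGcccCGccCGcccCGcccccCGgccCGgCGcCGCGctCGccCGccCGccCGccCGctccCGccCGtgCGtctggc

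Zscan5b, a SCAN zinc finger gene, was the only Zscan gene called higher. It had 43, 30 and 33 reads in the in vitro libraries, against 11, 7 and 18 in the in vivo libraries. The averages were 37.2 ± 5.32 in vitro, against 11.8 ± 7.50 in vivo, in normalised reads (SD, n = 3 each), and the groups did not overlap. Limma voom gave a log2 difference of 1.86 ± 0.45 (SE, adjusted p 0.0286), and PPEE in the authors' deposited table was 2.26e-07. The adjusted p was 0.106 without in vitro C, 0.107 without in vivo A and 0.132 without in vivo B, and lay below 0.05 without each of the others. These 3 genes and Zbtb49, described below with the lower calls, were the 4 that limma voom called at an adjusted p below 0.05. Among all 5804 recovered genes 3.55% were called higher and 2.83% lower by that test, against 3 higher and 1 lower of the 29 recovered here, and 11 of the 29 had an unadjusted p below 0.05, against 1516 of all.

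The other recovered genes with a higher call, 5 in all, also had libraries that did not overlap, but missed the adjusted threshold. Without in vitro library A, 4 of the 5 passed it, all but Zbtb41, in a limma voom fit that called 1036 of all 5804 genes, against 370 with all libraries. Without each of the other libraries, 0 of the 5 passed. Zbtb7c, a paralogue of the leukaemia factor gene Zbtb7a, had 9, 19 and 19 reads in the in vitro libraries, against 4, 1 and 3 in the in vivo libraries, and averaged 17.2 ± 7.96 in vitro, against 2.50 ± 1.40 in vivo, in normalised reads (SD, n = 3 each). That is a 6.86-fold difference of the means, the widest of the 52, on few reads (limma voom adjusted p 0.0723; PPEE 0.00112 in the authors' deposited table). Zbtb39 had 16, 27 and 15 reads in the in vitro libraries, against 3, 10 and 5 in the in vivo libraries, with a limma voom adjusted p of 0.0673. Zbtb7b encodes ThPOK, which directs thymocytes to the helper T cell lineage, and had 48, 54 and 50 reads in the in vitro libraries, against 26, 25 and 30 in the in vivo libraries (limma voom adjusted p 0.0528). Both genes were thus low in every in vivo library. Zbtb46, a marker of classical dendritic cells, had 87, 105 and 79 reads in the in vitro libraries, against 76, 47 and 52 in the in vivo libraries (limma voom adjusted p 0.0673). Zbtb41 had 164, 161 and 132 reads in the in vitro libraries, against 161, 104 and 91 in the in vivo libraries (limma voom adjusted p 0.0947). For Zbtb41 the libraries separated only after scaling, at 151 to 167 normalised reads in vitro and 92.1 to 130.2 in vivo. PPEE in the authors' deposited table was 0.00160 for Zbtb39, 0.000117 for Zbtb7b, 0.000395 for Zbtb46 and 0.00136 for Zbtb41.

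Zbtb22 and Zkscan16 were not called by PPEE, which the authors' deposited table lists as 1 for both, although their libraries did not overlap. Zbtb22 had 18, 19 and 13 reads in the in vitro libraries, against 10, 7 and 6 in the in vivo libraries, and averaged 17.5 ± 1.95 in vitro, against 7.02 ± 0.966 in vivo, in normalised reads (SD, n = 3 each; limma voom adjusted p 0.126). Zkscan16 had 154, 120 and 92 reads in the in vitro libraries, against 111, 97 and 69 in the in vivo libraries, and averaged 127 ± 13.8 in vitro, against 84.5 ± 6.03 in vivo, in normalised reads (SD, n = 3 each; limma voom adjusted p 0.102). For Zkscan16 the libraries separated only after scaling, at 114 to 142 normalised reads in vitro and 77.9 to 89.7 in vivo. The authors' deposited table lists a PPEE of 1 for 8 of the 52 genes. Over the 29 recovered genes, 10 had all in vitro libraries above all in vivo libraries and 1 had them all below, against 16.3% above and 14.0% below among all recovered genes. Of the 29 genes, 21 in in vitro library A and 20 each in in vitro libraries B and C lay above their in vivo mean. The same count over all recovered genes was not made. The median log2 ratio of a library over the in vivo mean was 0.453, 0.225 and 0.367 for the 29 genes (A, B and C). Over all recovered genes it was -0.007, 0.103 and 0.017. The libraries were set against the same in vivo mean, so these values are not independent.

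**Figure D3:**
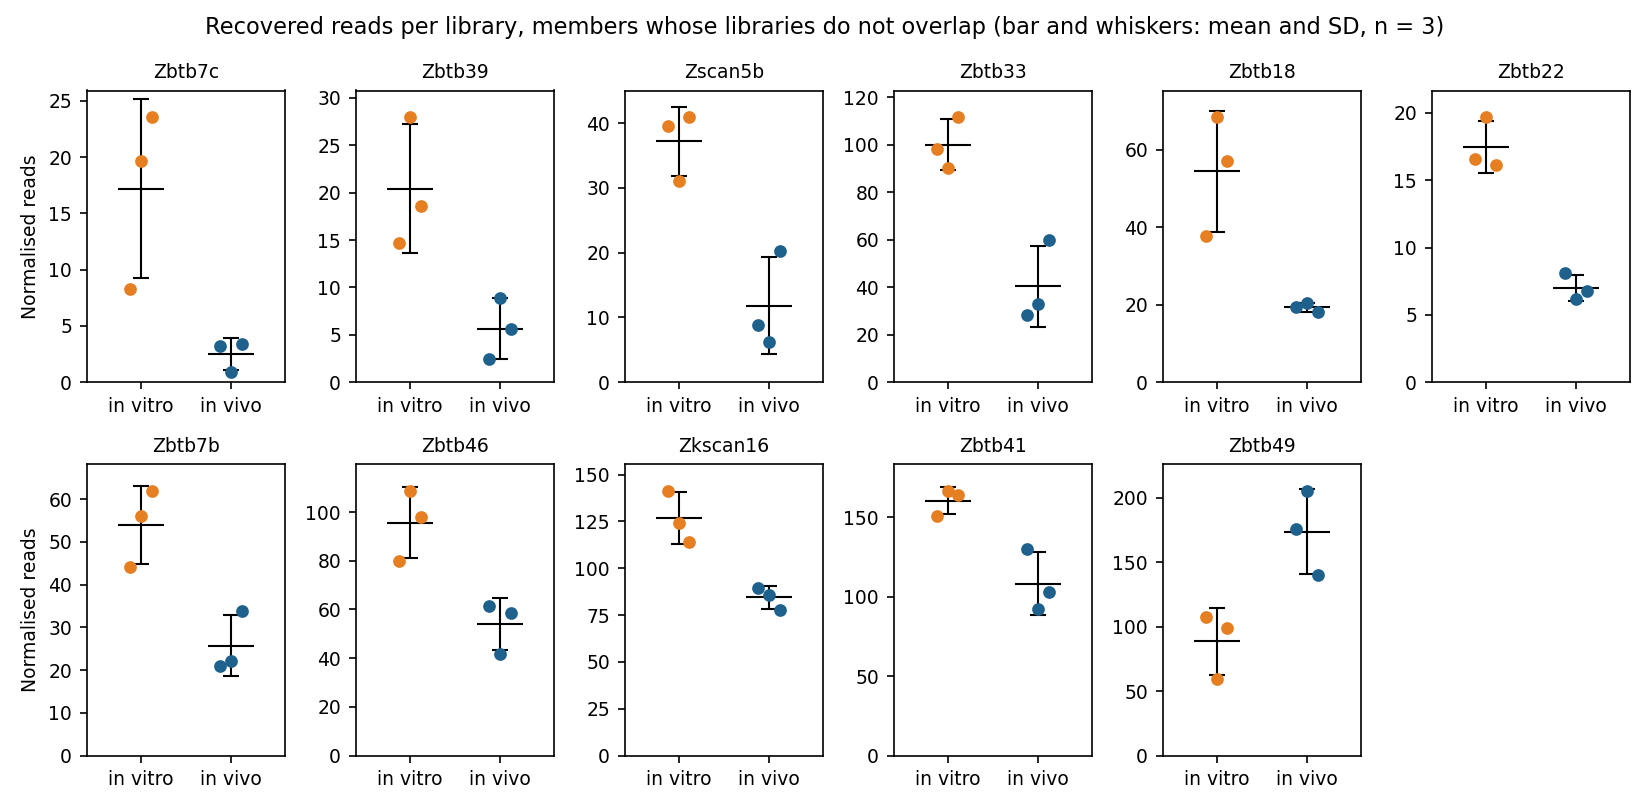
Normalised recovered reads (vertical axis, each panel with its own scale from 0) of the 11 genes whose libraries did not overlap, 1 point a library, in vitro left and in vivo right; bar and whiskers give mean and SD (n = 3). In 10 panels the in vitro points are above, and in the Zbtb49 panel they are below.

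Library reads could not be recovered for 3 of the genes called higher, because of means above 200 or because no whole solution existed. Zbtb10, a repressor of Sp transcription factor genes in human cells, had 429 normalised reads in vitro and 202 in vivo in the authors' deposited table, 2.12-fold higher (PPEE 0.00959). Zbtb2 had 203 in vitro and 154 in vivo (PPEE 0.0380) in the authors' deposited table. Its in vivo reads were recovered as 169, 193 and 138, and 20.2% of the 31-base words of its transcript also occur in the transcript of Gm13294, so its count is uncertain. Zbtbd6 had 173 normalised reads in vitro and 46.5 in vivo in the authors' deposited table, 3.71-fold higher (PPEE 0.0170). Its transcript shares 27.1% of its 31-base words with that of Kbtbd7, which was also called higher, so the count of Zbtbd6 is uncertain.

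Zbtb49 had the lowest log2 ratio of the 52 genes. Its protein works with Zbtb17 in activating the cell cycle inhibitor gene Cdkn1a in human cells. It had 117, 57 and 80 reads in the in vitro libraries, against 217, 232 and 124 in the in vivo libraries, and averaged 88.6 ± 25.9 in vitro, against 174 ± 32.8 in vivo, in normalised reads (SD, n = 3 each). Limma voom gave a log2 difference of -1.02 ± 0.25 (SE, adjusted p 0.0286), and PPEE in the authors' deposited table was 0.000585. The adjusted p lay below 0.05 without in vitro A or in vivo C, and between 0.0885 and 0.123 without each of the others. Zkscan5 fell by less, with 556 normalised reads in vitro and 696 in vivo (PPEE 1.14e-07) in the authors' deposited table. Its neighbour in the annotation, Zkscan14, did not pass the test.

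Zscan4 genes form a cluster of near-identical copies on chromosome 7 and are best known from the 2-cell embryo and from a rare state of embryonic stem cells, where they act on telomeres. In grown oocytes the 5 measured copies all had a lower mean in vitro. Zscan4c had 148 normalised reads in vitro and 249 in vivo (PPEE 8.25e-06), and Zscan4f had 113 in vitro and 193 in vivo (PPEE 1.2e-05), in the authors' deposited table. These are the 2 that were called lower, by 1.67-fold and 1.72-fold. Zscan4d had 175 in vitro and 245 in vivo (PPEE 0.527), Zscan4a 22.3 in vitro and 31.2 in vivo (PPEE 1) and Zscan4b 13.4 in vitro and 20.9 in vivo (PPEE 0.742), in the authors' deposited table. The 5 genes cannot be counted as 5 separate results. Each of the 4 copies with a GENCODE coding transcript shared between 65.0% and 97.6% of its 31-base words with other genes, and for each of the 5 genes at least 1 group mean up to 200 had no whole-read solution. Without the genes that had no such solution, 2 genes remained called lower.

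The coding sequences of Zscan4c and Zscan4f differ at 6 of 1521 bases, and each differs from that of Zscan4d at 35. The stretch from coding base 1032 to 1091, counted from the start codon on GENCODE M21 transcripts, is shown as the 60 bases in which the 3 copies differ most; capitals mark the 6 positions at which they are not all alike.
Zscan4c: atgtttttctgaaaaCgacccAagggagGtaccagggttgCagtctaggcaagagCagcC
Zscan4d: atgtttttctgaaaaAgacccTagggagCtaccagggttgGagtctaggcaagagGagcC
Zscan4f: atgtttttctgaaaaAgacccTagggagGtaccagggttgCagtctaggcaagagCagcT

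The Zscan4 copies also have near-identical promoters. A window of 100 bases around TATAAA was read from the RefSeq promoters on build GRCm38.p6, and is shown with TATAAA and CCAAT in capitals. Zscan4c (chr7:11005631-11005730, plus strand) and Zscan4f (chr7:11397824-11397923, plus strand) are identical there, Zscan4d (chr7:11166174-11166273, minus strand) differs from them at 2 bases and Zscan4b (chr7:10905042-10905141, minus strand) at 4.
Zscan4c: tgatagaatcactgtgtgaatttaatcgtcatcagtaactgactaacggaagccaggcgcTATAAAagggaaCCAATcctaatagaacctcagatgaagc
Zscan4f: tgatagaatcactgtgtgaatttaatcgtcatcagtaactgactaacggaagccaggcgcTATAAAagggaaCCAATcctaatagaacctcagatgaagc
Zscan4d: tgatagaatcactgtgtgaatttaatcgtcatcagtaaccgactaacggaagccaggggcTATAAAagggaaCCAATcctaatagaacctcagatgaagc
Zscan4b: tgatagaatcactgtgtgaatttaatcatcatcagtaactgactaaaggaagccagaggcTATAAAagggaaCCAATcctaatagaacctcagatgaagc

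RefSeq promoters of 300 bases, from 250 before to 50 after the start site, were found for 42 of the 52 genes and for 8798 genes of the table. TATAAA, searched on both strands, occurred in 14.3% of the 42 promoters and in 6.97% of all. The 6 genes with it were Zscan4b, Zscan4c, Zscan4d, Zscan4f, Zbtb43 and Zbtb8os. The Zscan4 promoters are near-identical copies and not separate cases, yet each was counted in the 14.3%. CCAAT occurred in 45.2% of the 42, the same Zscan4 copies counted among them, and in 39.99% of all. CACGTG occurred in 14.3% of the 42 and 10.4% of all. TAATTG, a sequence that the oocyte factor Nobox binds, was in 0 of the 42 and in 5.30% of all promoters. TCCTGCNA, a sequence bound by Kaiso, occurred in 1 of the 42, the promoter of Zbtb37, and in 4.69% of all. The promoters of 7 genes called higher held 1 to 51 CpG with a median of 34, those of 3 genes called lower held 3 to 36 with a median of 4, and those of 32 genes not called held 1 to 44 with a median of 19. The 3 called lower were Zscan4c and Zscan4f, near-identical copies with 4 and 3 CpG, and Zbtb49 with 36. These counts are a description of these windows, and the median over all genes was 21.

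The 2-cell program was followed through a list of 22 genes, of which 10 were measured, 2 called higher and 1 lower. Of all genes of the table, 6.75% were called higher and 8.31% lower. Tcstv3, a gene switched on with Zscan4, had 58.7 normalised reads in vitro and 112 in vivo (PPEE 0.00379), in the authors' deposited table. Dppa2 had 1049 in vitro and 788 in vivo (PPEE 1.2e-05), and Dppa4 had 207 in vitro and 137 in vivo (PPEE 0.00136), in the authors' deposited table, and these 2 factors act upstream of Zscan4 in embryonic stem cells. Eif1a, with the widest log2 ratio of the list at -1.09, had 12.9 in vitro and 28.1 in vivo (PPEE 0.122), in the authors' deposited table. The list therefore did not move one way.

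**Figure D4:**
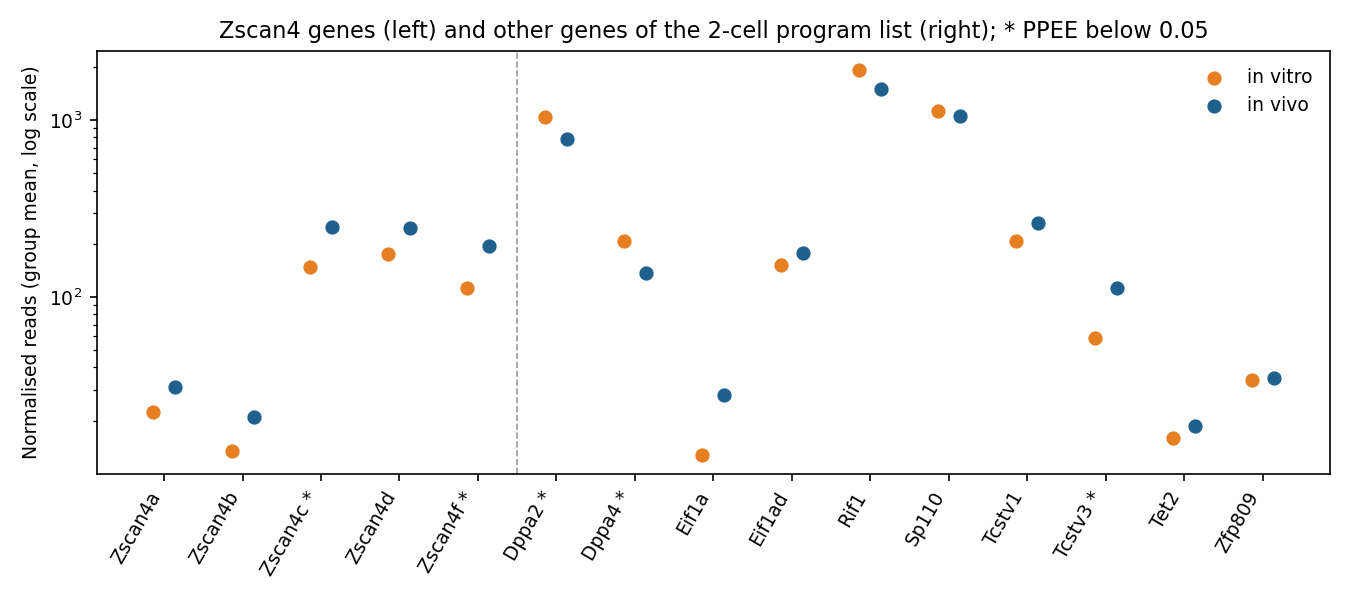
Group means of normalised reads (vertical axis, log scale) for the 5 Zscan4 genes, left of the dashed line, and the 10 measured genes of the 2-cell list, right of it, with in vitro drawn left of in vivo; an asterisk marks PPEE below 0.05. All 5 Zscan4 genes are lower in vitro, while Dppa2 and Dppa4 are higher.

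Some genes known for a role elsewhere were not called. Zbtb17, or Miz-1, a partner of Myc, had 101, 48 and 66 reads in the in vitro libraries, against 105, 113 and 76 in the in vivo libraries, and the groups overlapped. Zbtb24, mutated in a human syndrome of immunodeficiency and loss of centromeric methylation, had 208 normalised reads in vitro and 333 in vivo (PPEE 0.109) in the authors' deposited table. Zbtb20, which represses the alpha-fetoprotein gene in liver, had 67, 72 and 74 reads in the in vitro libraries, against 67, 88 and 53 in the in vivo libraries, which overlapped. Zscan10, a pluripotency factor of embryonic stem cells, had 129, 56 and 46 reads in the in vitro libraries, against 85, 59 and 76 in the in vivo libraries. Zbtb5 had 27, 9 and 10 reads in the in vitro libraries, against 21, 1 and 17 in the in vivo libraries, and 1 in vivo library was far below the others. Zbtb16, Zbtb7a and Zkscan3 had no row under these symbols in the authors' deposited table.

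The 23 remaining genes, none called, had log2 ratios between -0.46 and 0.60 and, in the authors' deposited table, no PPEE under 0.0801. The 15 Zbtb genes among them (Zbtb1, Zbtb6, Zbtb8os, Zbtb9, Zbtb11, Zbtb14, Zbtb21, Zbtb25, Zbtb26, Zbtb32, Zbtb34, Zbtb37, Zbtb40, Zbtb43 and Zbtb44) had 3.98 to 134 normalised reads per kilobase in vitro and 3.57 to 169.9 in vivo in the authors' deposited table. The 4 Zscan genes (Zscan12, Zscan18, Zscan20 and Zscan29) had 31.3 to 60.02 per kilobase in vitro and 28.7 to 56.5 in vivo in the authors' deposited table. The 4 Zkscan genes (Zkscan1, Zkscan8, Zkscan16 and Zkscan17, the last a partner of the methyltransferase Nsd1) had 10.2 to 125 per kilobase in vitro and 10.6 to 173 in vivo in the authors' deposited table. Zbtb9 stood out in 1 respect, since 85.5% of its 31-base words also lie in transcripts of Ggnbp1, so its reads are uncertain.

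Partners of these proteins were read from lists of genes. Beside the calls in each list stand 6.75% higher and 8.31% lower among all genes of the table. Of 23 measured co-repressor and cullin partners, 1 was called higher and 1 lower. Gps2, a subunit of the Ncor complex, had 179 normalised reads in vitro and 133 in vivo (PPEE 0.0386), and Sin3b, a histone deacetylase scaffold, had 381 in vitro and 533 in vivo (PPEE 0.0330), in the authors' deposited table. The widest log2 ratios, 1.45 for Trim28 and -1.33 for Bcor, were not called (PPEE 0.159 and 0.340 in the authors' deposited table). Of 12 measured methyl-CpG readers and genes of the Zbtb24 axis, 1 was called higher and 2 lower. Zfp57, which protects imprints, had 4389 in vitro and 3399 in vivo (PPEE 0.00851), in the authors' deposited table. Uhrf1, which carries methylation through replication, had 5743 in vitro and 9214 in vivo (PPEE 2.3e-09), and Dnmt3b, a methyltransferase, had 272 in vitro and 385 in vivo (PPEE 0.000493), in the authors' deposited table. Cdca7, a target of Zbtb24, had 92.4 in vitro and 139 in vivo (PPEE 0.126), in the authors' deposited table. The widest ratio of that list, a log2 of 1.16 for Mbd3, was not called. Of 9 measured genes of the Miz-1 and Myc network, 0 were called, and the widest log2 ratios were 1.46 for Mxd4 and 0.98 for Mxi1.

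Of 6 measured BTB zinc finger genes under other symbols, 0 were called, with the widest log2 ratios at 0.48 for Zfp131 and -0.45 for Gzf1. Of 8 measured SCAN genes under other symbols, 1 was called higher, Zfp202, with 19.8 normalised reads in vitro and 4.98 in vivo (PPEE 0.00216), in the authors' deposited table. The next widest ratio of that list was -0.41 for Zfp263.

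Granulosa and cumulus cells surround the oocyte, so their markers were followed. Of 20 listed markers 11 were measured, 4 were called higher and 0 lower, against 6.75% higher and 8.31% lower of all genes of the table. Fshr, Inha, Inhba and Hsd3b1 were the 4, and Inhba had 60.1 normalised reads in vitro and 2.69 in vivo in the authors' deposited table. Of the 11 markers 7 had a higher mean in vitro, while Kitl, Nr5a2, Cyp11a1 and Gja1 had a lower one and were not called. Among the 10 recovered markers, 5 had all in vitro libraries above all in vivo libraries, and 1 had them all below. Over all recovered genes these shares were 16.3% above and 14.0% below. In the authors' deposited table the 11 summed to 5840.2 normalised reads in vitro and 5466 in vivo, of which Serpine2, which was not called, gave 5349.6 in vitro and 5169 in vivo. The recovered markers, which leave out Serpine2, summed to 450.4 to 563 normalised reads per library in vitro and 279 to 306 in vivo. More granulosa cells in a sample and more of these transcripts per cell cannot be told apart in such samples. Of 18 oocyte markers, all measured, 0 were called higher and 3 lower, namely Bmp15, Nlrp5 and Kit, and the list summed to 162568 normalised reads in vitro and 210116 in vivo in the authors' deposited table. Of 3 measured endothelial markers, Pecam1 and Tek were called lower, the only measured blood marker, Cd68, was not called, and of 9 listed theca and stroma markers 0 were measured. Whether any of these differences bears on the BTB and SCAN genes was not tested.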

How the data were processed

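RNA of 6 samples was made into cDNA and amplified from 10 ng of total RNA per the labels' protocols, and BWA and build mm9 are named in the submitters' processing notes; how the libraries were counted, whether strand was kept and what was normalised are not given in the sources used here. The deposited signal is the authors' group mean of normalised reads, and the log2 ratio the authors deposited is in vivo over in vitro. Ratios here run in vitro over in vivo, with 0.599 added to both means, which recovers the deposited log2 to within 4.11e-09. Whole reads were recovered where both means were at most 200: 95.1% of the in vitro and 95.4% of the in vivo means in that range had a single solution, and shifted values that should have none gave one in 0.782% and 0.646% of cases. For means from 100 to 200 that rate was 2.97% in vitro and 2.61% in vivo. Zbtb33, Zbtb41, Zbtb49 and Zkscan16 each had a mean in that range, so their library reads are less certain. The libraries A, B and C had size factors of 1.09, 0.965 and 0.806 (in vitro group) and of 1.24, 1.13 and 0.885 (in vivo group). Limma 3.58.1 (R 4.3.3) voom was run on 5804 recovered genes, 2-sided, with Benjamini-Hochberg adjustment. It was also run on simulated data with the same spread set for every gene, which cannot vouch for the calls given here. Reads of shared or overlapping transcripts cannot be told apart. Lengths are the deposited ones. Genes were named by a rule: each called gene, each at least 2-fold apart, the 6 highest and 4 lowest in vivo per kilobase, and those of known role. Members and lists were chosen with earlier results of these data known. Unstated choices of strand or depth limit the precision.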

Additional observations from a re-analysis of the deposited data

How the results depend on the processing

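No paired analysis was possible because the columns are group means and the recovered libraries carry no replicate number. The counts of genes called higher and lower were 9 and 4 at PPEE below 0.01, 13 and 5 below 0.10, 9 and 3 with at least a 1.5-fold difference, 10 and 4 with a mean of at least 10, and 12 and 4 with genes of other symbols. Shares of all genes at these changed settings were not counted, so these counts have no baseline beside them. Leaving out the 6 genes with no whole-read solution, an alternative chosen after seeing the data, left 10 higher and 2 lower. The median log2 ratio lay between 0.12 and 0.14 under other offsets, centring and a filter on the mean. Limma voom called 4 of the 29 recovered genes and 370 of all 5804, and limma trend called 7 and 524. Voom on the 4212 genes with both means up to 100 called 2 members, Zbtb18 and Zscan5b, and 135 genes in all. Zbtb33 and Zbtb49 had a mean above 100 and were not in that fit. Leaving out 1 library moved the count between 0 and 8, with 0 without in vitro library C, in vivo library A or in vivo library B and 8 without in vitro library A; over all recovered genes it moved between 29 and 1036. The cause was not tested. Few reads limit the lowest genes, such as Zbtb7c with 1 to 4 in vivo reads a library.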

Other observations

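BTB genes without zinc fingers, taken by the symbol starts Abtb, Bach, Btbd, Kbtbd, Klhl, Nacc, Rcbtb and Rhobtb and chosen after values were seen, numbered 42 in the table. Of these, 5 were called higher (Kbtbd7, Klhl12, Klhl21, Klhl9 and Rhobtb2) and 4 lower (Btbd9, Klhl24, Rcbtb2 and Rhobtb1) by PPEE, with a median log2 ratio of 0.16. The shares were 11.9% higher and 9.52% lower, against 6.75% and 8.31% of all genes of the table. Klhl21 was 2.90-fold higher in vitro, and Klhl24 2.02-fold lower in vitro.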
